A study of Drosophila melanogaster with 4 samples.

Results

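Heat shock proteins and chaperonins are the cell's protein folding machines, and their RNA was followed here in intestinal stem cells sorted from the gut of Drosophila melanogaster, where they divide to replace worn-out gut cells. The genes were taken by name alone, 42 of the 15495 rows of the deposited table. The names begin with Hsp and a digit, Hsc70, DnaJ, Droj, Cct, T-cp1 or Tcp-1, or are Hop, Hsf, Trap1, Gp93, HSPC300 or Cdc37. By class they are 7 small Hsp genes, 13 Hsp70 and Hsc70 genes, 5 genes of the Hsp90 group with Hop, 4 DnaJ genes and 9 chaperonin genes, with the heat shock transcription factor gene Hsf beside them. The remaining 3 have matching names and roles outside folding. Cct1 and Cct2, now called Pcyt1 and Pcyt2, encode enzymes of phospholipid synthesis, and HSPC300 encodes a subunit of the actin-regulating SCAR complex. Hsp67Bb, counted with the small Hsp genes by its name, is now called CG4456 and encodes a rhodanese domain protein rather than a small heat shock protein. The chaperonin subunit that is now named CCT1 is the row called T-cp1.

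The stem cells had been sorted by flow cytometry after 7 days at 29 °C, the temperature at which the flies expressed RNA interference against Piwi or, in the control, against mCherry, a fluorescent protein that is not a fly protein. There were 2 libraries per group, each made from 100 pooled guts, and the source label of the mCherry RNAi libraries reads yw. The sources used here do not give the driver of the RNAi, how the genetic backgrounds relate, or the sex and age of the flies. Whether the pools were collected separately is not stated either, so p-values measure only the spread between these libraries. Both groups were held at the same temperature, so the levels below are those of flies kept at 29 °C for 7 days in either case. Values are FPKM, fragments per kilobase of transcript, scaled to the mapped fragments of the library.

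The targeted gene, piwi (FBgn0004872), was listed at 0.495 FPKM in mCherry RNAi replicate 1 and 1.94 in replicate 2, versus 0.208 in Piwi RNAi replicate 1 and 0.442 in replicate 2. The groups did not overlap, but the mean over all libraries was under 1 FPKM, so piwi was not tested. Library depth, estimated from the steps between low values, was 1605000 to 2265000 fragments. The 7 progenitor markers, esg and Dl among them, were detected in every library, with a summed level of 2896 to 3465 FPKM. Most of this sum was E(spl)mbeta-HLH, at 2531 to 2827 FPKM, while esg had 239.7 to 415.9 FPKM and Dl 3.41 to 4.49 FPKM. All 7 were lowest in mCherry RNAi replicate 1, against 51.6% of all tested genes. Both Piwi RNAi libraries lay above both mCherry RNAi libraries for 6 of them, against 51.5%. The largest ratio of means was that of klu, with 28.5 and 34.4 FPKM in the mCherry RNAi libraries versus 82.4 and 86.1 in the Piwi RNAi libraries. By the summed enterocyte and visceral muscle markers, mCherry RNAi replicate 1 stood apart from the other 3 libraries. Its 10 enterocyte markers summed to 17668 FPKM, against 1435 in mCherry RNAi replicate 2, 1720 in Piwi RNAi replicate 1 and 856 in Piwi RNAi replicate 2, and its 10 visceral muscle markers to 83.6 FPKM, against 11.5, 22.3 and 8.80. All 10 enterocyte markers and 6 of the 7 tested muscle markers were highest in that library, while the muscle genes Mlc1 and Mf were listed at 0 in the other 3. The enterocyte marker Myo31DF had 135.3 and 127.5 FPKM in mCherry RNAi versus 90.3 and 77.9 in Piwi RNAi. Lip3 had 4.46 and 4.02 versus 0.94 and 0.33, so neither differed much between mCherry RNAi libraries. Both Piwi RNAi libraries lay below both mCherry RNAi libraries for 4 of the 10 enterocyte markers, against 13.0% of all tested genes. Of the muscle sum in Piwi RNAi replicate 1, 18.7 FPKM was vn, the only tested muscle marker higher in both Piwi RNAi libraries. The 9 enteroendocrine markers summed to 1137 and 2843 FPKM in the mCherry RNAi libraries versus 185 and 331 in the Piwi RNAi libraries. Most of each sum was npf, at 967.8 and 2514 FPKM versus 145.7 and 301.3. Of the 7 tested, 5 were lower in both Piwi RNAi libraries, while CCHa1 and CCHa2 overlapped between groups. Of the 3 hemocyte markers, which summed to 1.57 and 3.003 versus 12.6 and 18.0, nearly all was Sr-CI. NimC1 was listed at 0 throughout, and Hml at 0.0417 FPKM in mCherry RNAi replicate 1 and at 0 in the other 3. In pooled cells such as these, fewer cells of a type and less RNA per cell cannot be told apart.

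Molecular chaperones keep newly made or damaged proteins from clumping and help them fold. Small Hsp proteins hold unfolding proteins, Hsp70 with its DnaJ partners binds and releases them in a cycle driven by ATP, Hsp90 matures signalling proteins handed over by Hop, and the barrel-shaped chaperonins enclose a protein while it folds. In flies, some of these genes are expressed at all times, whereas others are switched on within minutes by the transcription factor Hsf when proteins are damaged, and Hop binds Piwi itself and acts with Hsp90 in Piwi function.

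Of the 42 genes, 37 had a mean of at least 1 FPKM and were tested, with limma over all 8313 genes above that mean. None passed the limma test at an adjusted p under 0.05, a threshold that 1.18% of all tested genes passed, 0.613% with higher and 0.565% with lower values in Piwi RNAi. At an adjusted p under 0.1 there were 2, Hsp27 and DnaJ-H, or 5.41%, against 3.04% of all tested genes. At an unadjusted p under 0.05 there were 12 of 37, or 32.4%, against 26.6% of all tested genes. Both Piwi RNAi libraries lay above both mCherry RNAi libraries for 14 of 37 genes, or 37.8%, a smaller share than the 51.5% of all tested genes, and below both for 4 of 37, or 10.8%, against 13.0%. The remaining 19 overlapped. The difference was above 0 for 22 of 37 genes, or 59.5%, against 70.0%. Differences are Piwi RNAi minus mCherry RNAi throughout, from values of log2(FPKM + 1). The median log2 difference was 0.17 for the 37 genes and 0.37 for all tested genes. The members' median changed sign with the scaling, to −0.23 when libraries were scaled by the median of ratios and −0.025 after quantile normalization. The median of all tested genes was then −0.01 and 0.10.

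The classes did not share a direction. Their median log2 differences were 0.59 for the Hsp90 group, 0.33 for the chaperonins, 0.15 for the DnaJ genes, −0.17 for the small Hsp genes and −0.33 for the Hsp70 and Hsc70 genes. With median of ratios scaling, which removes most of the shift shared by all genes, the Hsp90 group alone stayed above 0, at 0.19, with the chaperonins at −0.08, the DnaJ genes at −0.25, the small Hsp genes at −0.52 and the Hsp70 and Hsc70 genes at −0.72. Without Piwi RNAi replicate 2 the median was 0.19 for the Hsp70 and Hsc70 genes and 0.26 for the small Hsp genes. Without mCherry RNAi replicate 1 it was −0.05 and 0.19 for these classes and 0.0748 for the chaperonins. The difference between classes was not tested.

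**Figure D1:**
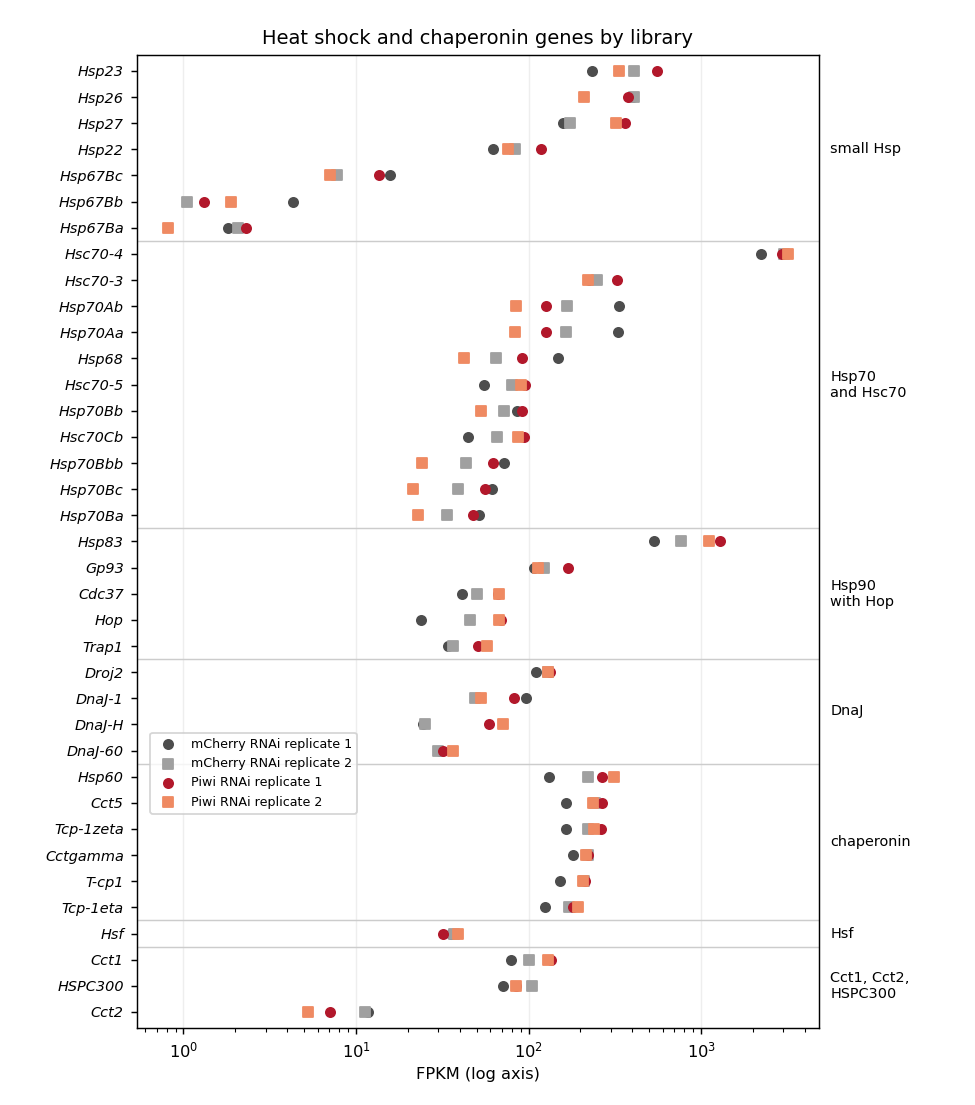
FPKM on a log axis of the 37 tested genes in each of the 4 libraries, grouped by class and ordered by mean level within a class. Hsc70-4 and Hsp83 lie at the upper end, and the Hsp68 and Hsp70 genes have their lowest point in Piwi RNAi replicate 2.

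The summed level of all 42 genes was 6626 and 7874 FPKM in the mCherry RNAi libraries and 9098 and 8230 FPKM in the Piwi RNAi libraries. The largest share came from a single constitutive gene. Hsc70-4, the main cytosolic Hsp70 of unstressed cells, made up 32.2% to 38.7% of the sum in each library, and Hsc70-4 with Hsp83 made up 41.5% to 52.2%.

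In the Hsp90 group, the cytosolic Hsp90, Hop, Cdc37 and Trap1 had higher values in both Piwi RNAi libraries, as had 51.5% of all tested genes, without passing the test. Hsp83 (FBgn0001233), the fly's cytosolic Hsp90, had 533.6 and 762.2 FPKM in the mCherry RNAi libraries versus 1288 and 1107 in the Piwi RNAi libraries. The groups did not overlap, and the ratio of means was 1.85 (log2 difference 0.90 ± 0.20, SE; 95% interval 0.39 to 1.42; limma adjusted p = 0.132). Hop (FBgn0024352, now Stip1), the adaptor that joins Hsp70 to Hsp90 and binds Piwi, had 23.8 and 46.0 FPKM in the mCherry RNAi libraries versus 69.0 and 67.6 in the Piwi RNAi libraries. Its Piwi RNAi libraries lay within a few percent of each other, whereas its mCherry RNAi libraries differed, and its values rest on about 91.7 and 180 fragments against about 210 and 290 (ratio of means 1.96; log2 difference 1.02 ± 0.35, SE; 95% interval 0.12 to 1.92; limma adjusted p = 0.169). Without mCherry RNAi replicate 1, the log2 difference of Hop was 0.56 and that of Hsp83 0.65. With median of ratios scaling it was 0.62 for Hop and 0.50 for Hsp83.

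The ratio of Hsp83 to Hop was 22.4 and 16.6 in the mCherry RNAi libraries and 18.7 and 16.4 in the Piwi RNAi libraries, so the groups overlapped. Set against Hsc70-4 instead, Hsp83 had 24.05% and 25.3% of the Hsc70-4 level in the mCherry RNAi libraries versus 43.9% and 34.7% in the Piwi RNAi libraries. This ratio is unaffected by the scaling of a library, and the groups did not overlap (exact two-sided permutation test over the 4 libraries, p = 0.333, the smallest that 2 against 2 libraries can give).

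Cdc37, the adaptor that brings kinases to Hsp90, had 40.9 and 50.5 FPKM in the mCherry RNAi libraries versus 66.6 and 67.7 in the Piwi RNAi libraries (log2 difference 0.55; limma adjusted p = 0.176). Trap1, the mitochondrial Hsp90, had 34.3 and 36.7 FPKM against 50.6 and 57.1 FPKM (0.59; limma adjusted p = 0.166). For both genes the groups did not overlap. With median of ratios scaling the log2 difference was 0.15 for Cdc37 and 0.19 for Trap1. Gp93, the Hsp90 of the endoplasmic reticulum, had 107.8 and 122.7 FPKM in the mCherry RNAi libraries versus 170.2 and 113.7 in the Piwi RNAi libraries, so its groups overlapped, and its log2 difference of 0.27 became −0.13 with median of ratios scaling.

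Partner proteins of Hsp90 under other names were taken as a list of 9 genes. None of the 9 passed limma's test (2 had an unadjusted p under 0.05), 7 were higher in both Piwi RNAi libraries and 1 was lower in both, against 26.6%, 51.5% and 13.0% of all tested genes. Sgt1, a co-chaperone of Hsp90, had 11.2 and 18.9 FPKM against 32.1 and 34.4 FPKM (log2 difference 1.14; limma adjusted p = 0.146). nudC had 16.6 and 47.7 FPKM against 57.0 and 73.3 FPKM (1.16; limma adjusted p = 0.220), and the ATPase activator gene CG1416, the fly counterpart of Ahsa1, had 40.9 and 65.5 FPKM against 78.6 and 77.5 FPKM (0.58; limma adjusted p = 0.232). In all 3 mCherry RNAi replicate 1 was the lowest library, and without it the log2 difference was 0.78 for Sgt1, 0.43 for nudC and 0.25 for CG1416. The gene lower in both Piwi RNAi libraries was shu, which encodes a co-chaperone of the piRNA pathway and was named after its values were seen, with 4.98 and 7.03 FPKM against 4.33 and 3.33 FPKM (−0.53; limma adjusted p = 0.328).

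**Figure D2:**
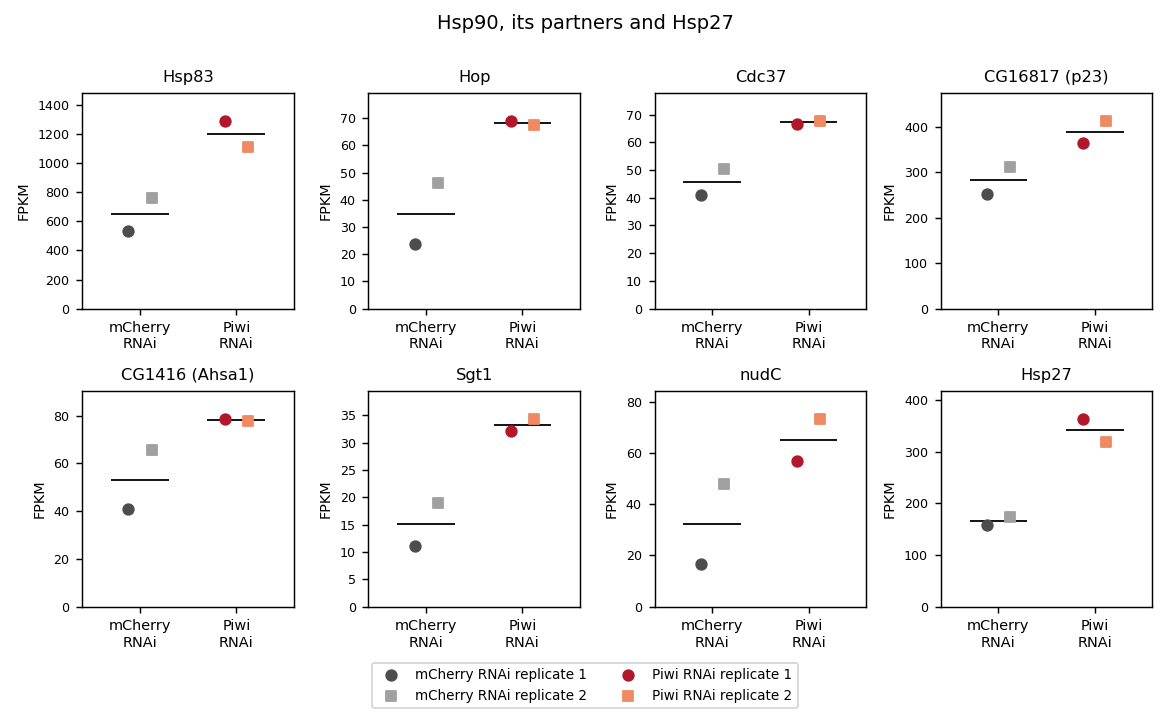
FPKM of Hsp83, Hop, Cdc37, 4 further Hsp90 partner genes (among them CG16817, the p23 co-chaperone) and the small Hsp gene Hsp27, with 1 point per library, a line at each group mean and axes from 0. In every panel both Piwi RNAi points lie above both mCherry RNAi points. The panels are a selection, so this cannot be set against the 51.5% of all tested genes with that order. Among genes not shown, Gp93, Hsp22 and Hsp23 overlapped between groups, and shu and Hsp26 were lower in both Piwi RNAi libraries.

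The stress-inducible Hsp70 genes showed differences of the opposite sign to Hsp83, also with median of ratios scaling. The fly has several near-identical Hsp70 copies, here the neighbouring pair Hsp70Aa and Hsp70Ab and the 4 copies Hsp70Ba, Hsp70Bb, Hsp70Bbb and Hsp70Bc, and how the authors' pipeline shared fragments among copies was not stated. Hsp70Aa had 328.7 and 165.1 FPKM in the mCherry RNAi libraries versus 125.7 and 83.3 in the Piwi RNAi libraries, and Hsp70Ab 332.4 and 166.5 FPKM against 126.6 and 84.3 FPKM. The copies differed from each other by little in any library, so their separate levels are uncertain and they count as 1 observation. Their summed level was 661.1 and 331.6 FPKM in the mCherry RNAi libraries versus 252.3 and 167.6 in the Piwi RNAi libraries. The groups did not overlap, and for Hsp70Aa the mCherry RNAi mean was 2.36-fold the Piwi RNAi mean (log2 difference −1.18 ± 0.39, SE; 95% interval −2.20 to −0.16; limma adjusted p = 0.167).

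The 4 Hsp70B copies summed to 271.3 and 188.6 FPKM in the mCherry RNAi libraries versus 258.5 and 121.2 in the Piwi RNAi libraries, which overlap. Their log2 differences lay between −0.52 for Hsp70Bbb and −0.17 for Hsp70Bb. Hsp68, a further inducible member of the family, had 148.9 and 65.1 FPKM against 91.4 and 42.5 FPKM, which overlap as well (log2 difference −0.65 ± 0.54, SE; limma adjusted p = 0.432). Without Piwi RNAi replicate 2 the log2 difference was above 0 for each of the 4 Hsp70B copies, at 0.15 to 0.22, and it was −0.11 for Hsp68 and −0.89 for Hsp70Aa. Without mCherry RNAi replicate 1 it was −0.06 for Hsp68 and −0.69 for Hsp70Aa.

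All 7 of these genes were lowest in Piwi RNAi replicate 2, as were 16.1% of all tested genes, and 6 of the 7 were highest in mCherry RNAi replicate 1, as were 18.2%. Among all 37 genes, 10 were highest in mCherry RNAi replicate 1, 12 were lowest in Piwi RNAi replicate 2 and 8 were both, or 21.6%, against 8.16% of all tested genes. Reads shared between copies mean that they are fewer than 7 independent observations. The library in which 6 of them were highest is also the one with the highest enterocyte and muscle marker sums, 17668 and 83.6 FPKM, and the part of those cells in the result was not tested. Without mCherry RNAi replicate 1 the median log2 difference of the 7 genes went from −0.52 to −0.16.

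The stress response genes DnaJ-1, Hsromega and stv, the last named beyond the rule given below, were also highest in mCherry RNAi replicate 1. By contrast, Hsp22, Hsp23, Hsp27 and Hsp83 were lowest in that library, as were 51.6% of all tested genes, and Hsp26 was neither highest nor lowest there. DnaJ-1, the inducible partner of Hsp70, had 96.7 and 49.1 FPKM in the mCherry RNAi libraries versus 82.6 and 52.8 in the Piwi RNAi libraries (log2 difference −0.06). The co-chaperone gene stv (starvin), of the BAG family, had 94.95 and 43.3 FPKM against 60.9 and 33.4 FPKM (−0.50; limma adjusted p = 0.496). The heat shock noncoding RNA Hsromega had 291.3 and 186.4 FPKM against 151.9 and 129.0 FPKM. Its groups did not overlap (−0.73 ± 0.26, SE; limma adjusted p = 0.174; −0.41 without mCherry RNAi replicate 1). Hsf itself, the factor that activates these genes, had 35.7 and 37.1 FPKM in the mCherry RNAi libraries versus 31.9 and 38.9 in the Piwi RNAi libraries (log2 difference −0.04; 95% interval −0.59 to 0.50; limma adjusted p = 0.891), and the groups overlapped.

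**Figure D3:**
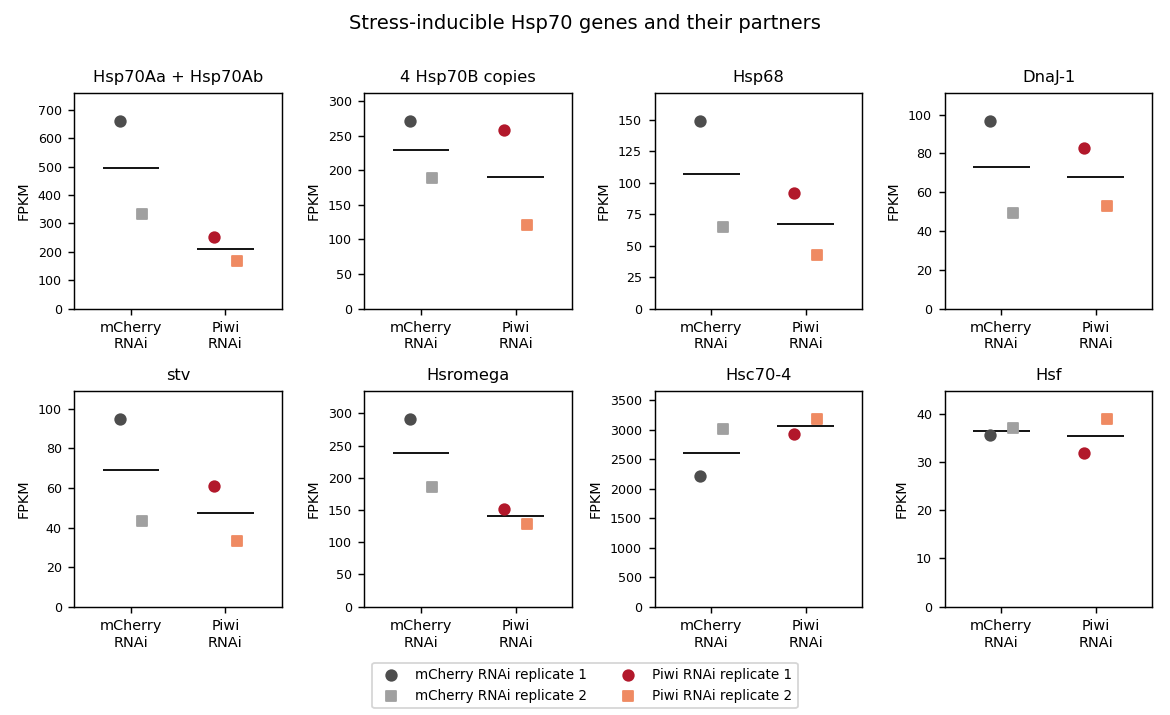
FPKM of the summed Hsp70A pair, the 4 summed Hsp70B copies, Hsp68, DnaJ-1, stv and Hsromega, with the constitutive Hsc70-4 and the transcription factor gene Hsf for comparison. Points are libraries, lines are group means and axes start at 0. In the first 6 panels mCherry RNAi replicate 1 is the highest point, and only the Hsp70A pair and Hsromega have groups that do not overlap. Hsp22, Hsp23, Hsp27 and Hsp83, not shown here, were lowest in that library.

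The 4 tested Hsc70 genes had differences above 0, of which those of Hsc70-4 and Hsc70-3 were below 0 with median of ratios scaling. Hsc70-4 (FBgn0001219) had 2219 and 3013 FPKM in the mCherry RNAi libraries versus 2932 and 3187 in the Piwi RNAi libraries, the highest level among the 42 heat shock and chaperonin genes, with overlapping groups (log2 difference 0.24, limma adjusted p = 0.343, −0.17 after median of ratios scaling). Relative to Hsc70-4 within each library, all 6 Hsp70 copies together had 42.0% and 17.3% of its level in mCherry RNAi and 17.4% and 9.06% in Piwi RNAi. The groups overlapped, since the higher Piwi RNAi value just exceeded the lower mCherry RNAi value (exact two-sided permutation test, p = 0.667). For the Hsp70A pair alone the shares were 29.8% and 11.0% against 8.603% and 5.26%, which did not overlap (exact two-sided permutation test, p = 0.333).

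Hsc70Cb, now called Hsp110, which recharges Hsp70 by nucleotide exchange, had 44.3 and 65.8 FPKM in the mCherry RNAi libraries versus 94.5 and 87.2 in the Piwi RNAi libraries (log2 difference 0.74 ± 0.25, SE; 95% interval 0.10 to 1.38; limma adjusted p = 0.168). Its groups did not overlap. Hsc70-5, the mitochondrial Hsp70, had 55.5 and 79.9 FPKM against 95.3 and 90.6 FPKM (0.47; limma adjusted p = 0.248), without overlap. The log2 difference without mCherry RNAi replicate 1 was 0.46 for Hsc70Cb and 0.21 for Hsc70-5. With median of ratios scaling it was 0.34 for Hsc70Cb and 0.07 for Hsc70-5. Hsc70-3, the BiP of the endoplasmic reticulum, had 225.4 and 250.7 FPKM against 324.0 and 220.9 FPKM, with overlap, and its difference of 0.17 was −0.24 with median of ratios scaling. Hsc70-1 was listed at 0 in 3 libraries and at 0.424 FPKM in Piwi RNAi replicate 2, and Hsc70-2 had at most 0.599 FPKM, so neither was tested.

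Among 7 listed Hsp70 partner genes outside the family, none passed limma's test (2 had an unadjusted p under 0.05), and 5 were higher in both Piwi RNAi libraries, against 26.6% and 51.5% of all tested genes. HIP, which stabilises Hsp70 bound to its client, had 8.55 and 15.0 FPKM in the mCherry RNAi libraries versus 23.9 and 30.9 in the Piwi RNAi libraries (log2 difference 1.19; limma adjusted p = 0.150). Its relative HIP-R had 12.1 and 20.2 FPKM against 25.2 and 29.6 FPKM (0.76; limma adjusted p = 0.197). CG10973, listed as the exchange factor HspBP1, had 5.37 and 15.8 FPKM against 17.0 and 22.97 FPKM (1.00; limma adjusted p = 0.260). With mCherry RNAi replicate 1 left out, the log2 difference was 0.82 for HIP, 0.42 for HIP-R and 0.30 for CG10973.

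The small Hsp genes lie in a single cluster on chromosome arm 3L and differed from each other. In annotation order they are Hsp67Bc, Hsp67Bb, Hsp22, Hsp26, Hsp67Ba, Hsp23 and Hsp27, with the small Hsp gene CG4461 between Hsp22 and Hsp26. Hsp27 (FBgn0001226) had 158.7 and 173.2 FPKM in the mCherry RNAi libraries versus 363.6 and 319.1 in the Piwi RNAi libraries. This was the smallest adjusted p of the 37 genes and just missed the threshold (ratio of means 2.06; log2 difference 1.03 ± 0.15, SE; 95% interval 0.66 to 1.41; limma adjusted p = 0.0594). With any library left out the log2 difference stayed between 0.94 and 1.13, and it was 0.63 after median of ratios scaling (limma adjusted p = 0.141).

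Its neighbour Hsp23 had 233.9 and 410.1 FPKM in the mCherry RNAi libraries versus 555.3 and 334.1 in the Piwi RNAi libraries, and Hsp22, whose product is mitochondrial, had 62.0 and 83.5 FPKM against 118.7 and 76.2 FPKM. Both overlapped between groups, with log2 differences of 0.47 and 0.40, which were 0.07 and −0.0058 after median of ratios scaling. They were 0.07 and 0.19 without mCherry RNAi replicate 1, and without Piwi RNAi replicate 1 they were 0.11 and 0.08. Hsp26 had 403.8 and 407.8 FPKM in the mCherry RNAi libraries versus 376.3 and 209.0 in the Piwi RNAi libraries, so that 1 Piwi RNAi library was near the control level and the other well below it (ratio of means 0.721; log2 difference −0.53 ± 0.29, SE; limma adjusted p = 0.283; −0.11 without Piwi RNAi replicate 2). The 3 Hsp67B genes were low, with 7.05 to 15.8 FPKM for Hsp67Bc, 1.048 to 4.32 FPKM for Hsp67Bb and 0.809 to 2.29 FPKM for Hsp67Ba. The last rests on about 2.94 to 6.90 fragments per library, and all 3 overlapped between groups. With Hsp67Bb not counted, an alternative chosen after seeing the data, the median of the small Hsp class was 0.12 instead of −0.17.

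Of 5 small Hsp genes with other names, 2 were tested and neither passed limma's test (none had an unadjusted p under 0.05). CG14207, the counterpart of HspB8, had 94.6 and 88.6 FPKM in the mCherry RNAi libraries versus 90.3 and 80.1 in the Piwi RNAi libraries (log2 difference −0.11; limma adjusted p = 0.682). l(2)efl was at 14.4 FPKM in mCherry RNAi replicate 1 and at 0.712 to 1.014 FPKM in the other 3 libraries (log2 difference −1.50; limma adjusted p = 0.378). The part of the muscle markers, at 83.6 FPKM in that library, in the l(2)efl value was not tested.

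**Figure D4:**
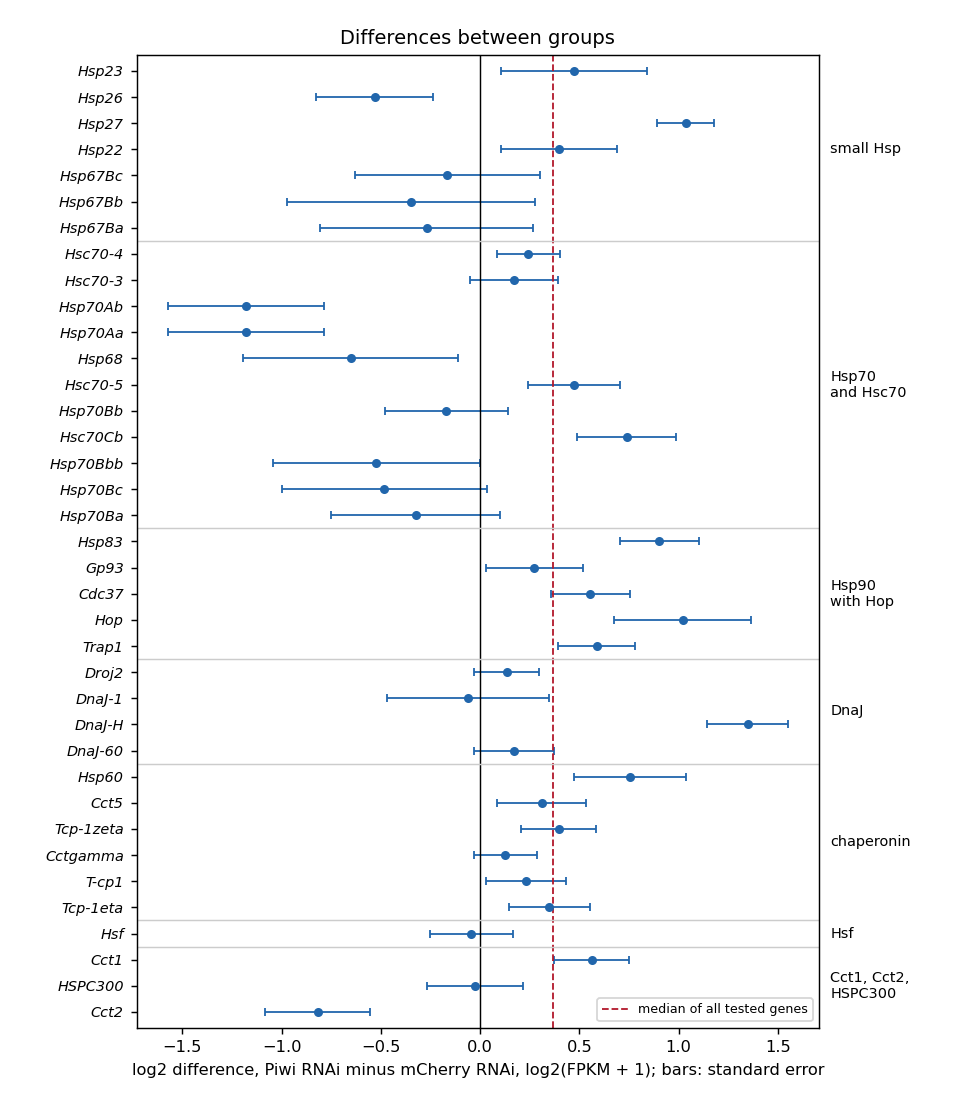
Log2 differences of log2(FPKM + 1), Piwi RNAi minus mCherry RNAi, for the 37 tested genes with their standard errors. The solid line marks 0 and the dashed line the median of all tested genes, 0.37. DnaJ-H, Hsp27, Hop and Hsp83 lie farthest to the right and the Hsp70A pair farthest to the left, and none passed at an adjusted p under 0.05.

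DnaJ proteins start the Hsp70 cycle, and the 4 genes of this name spread widely. DnaJ-H (FBgn0032474) had 24.5 and 25.1 FPKM in the mCherry RNAi libraries versus 59.0 and 70.9 in the Piwi RNAi libraries. Its ratio of means was the largest of the 37 genes, 2.62, and the groups did not overlap (log2 difference 1.35 ± 0.20, SE; 95% interval 0.82 to 1.87; limma adjusted p = 0.0685). It passed when the minimum mean for the test was 5 FPKM (limma adjusted p = 0.0494). After median of ratios scaling the difference was 0.95 (limma adjusted p = 0.121). Droj2 had 110.5 and 129.7 FPKM against 132.5 and 130.5 FPKM, and DnaJ-60 30.5 and 30.1 FPKM against 31.9 and 36.6 FPKM. For neither gene did the groups overlap, but the log2 differences of 0.13 and 0.17 were below the median of all genes and were −0.27 and −0.23 after median of ratios scaling.

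Another 32 genes with a DnaJ domain carry other names, and 28 were tested. None passed limma's test (9 had an unadjusted p under 0.05), 18 were higher in both Piwi RNAi libraries and 1 was lower in both, against 26.6%, 51.5% and 13.0% of all tested genes. Their median log2 difference was 0.53, against 0.37 for all tested genes. CG32641 had 28.7 and 36.6 FPKM in the mCherry RNAi libraries versus 73.6 and 100.8 in the Piwi RNAi libraries (log2 difference 1.38; limma adjusted p = 0.0994), and CG32640 had 30.1 and 44.1 FPKM against 79.3 and 104.6 FPKM (1.298; limma adjusted p = 0.126). Their levels were similar in all 4 libraries, and reads may not be separable between them. CG7130 had 5.94 and 1.67 FPKM against 11.8 and 3.77 FPKM, so its groups overlapped (0.86; limma adjusted p = 0.423; 0.15 without Piwi RNAi replicate 1).

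The cytosolic chaperonin, called TRiC or CCT, is a double ring of 8 different subunits and folds actin and tubulin. The table names 5 of them as T-cp1, Cctgamma, Cct5, Tcp-1zeta and Tcp-1eta, and CG7033, CG5525 and CG8258 encode the other 3. Within a library the 8 subunits lay close together. The highest was 1.46 times the lowest in each mCherry RNAi library, and 1.496 and 1.39 times the lowest in the Piwi RNAi libraries. Medians over the 8 subunits were 149 and 202 FPKM in the mCherry RNAi libraries versus 216 and 212 in the Piwi RNAi libraries. All 8 were lowest in mCherry RNAi replicate 1, as were 51.6% of all tested genes, while mCherry RNAi replicate 2 lay near the Piwi RNAi libraries.

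Their log2 differences ran from 0.13 for Cctgamma to 0.47 for CG8258, with a median of 0.32, close to that of all tested genes. None of the 8 passed the limma test, and none did at an unadjusted p under 0.05. Tcp-1zeta had 165.8 and 219.9 FPKM in the mCherry RNAi libraries versus 263.3 and 240.2 in the Piwi RNAi libraries (0.40; 95% interval −0.09 to 0.88; limma adjusted p = 0.236; 0.19 without mCherry RNAi replicate 1). T-cp1 had 151.7 and 210.7 FPKM against 211.8 and 207.8 FPKM, with overlap (0.23; limma adjusted p = 0.456). With median of ratios scaling 7 of the 8 differences were below 0, and CG8258 was at 0.06.

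Prefoldin, the complex that delivers unfolded actin and tubulin to this chaperonin, had 6 tested subunit genes. None passed limma's test (none had an unadjusted p under 0.05), 1 was higher in both Piwi RNAi libraries, and the median log2 difference was 0.09. Over all tested genes the shares were 26.6% and 51.5% and the median 0.37. CG13993 (Pfdn1) had 40.7 and 54.3 FPKM against 59.4 and 67.6 FPKM (0.42; limma adjusted p = 0.273). CG10635 (Pfdn4) had 29.3 and 67.0 FPKM against 68.4 and 49.0 FPKM, and CG7770 (Pfdn6) 46.6 and 75.1 FPKM against 61.4 and 67.1 FPKM, both with overlap. All 6 were lowest in mCherry RNAi replicate 1.

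Hsp60 (FBgn0015245, now Hsp60A), which forms the barrel of the mitochondrial chaperonin, had 131.0 and 220.6 FPKM in the mCherry RNAi libraries versus 266.1 and 310.7 in the Piwi RNAi libraries, without overlap (ratio of means 1.64; log2 difference 0.75 ± 0.28, SE; 95% interval 0.03 to 1.48; limma adjusted p = 0.181). CG11267, the Hsp10 that caps the barrel, had 129.5 and 228.1 FPKM against 258.0 and 294.1 FPKM (0.68; limma adjusted p = 0.216). The log2 differences of Hsp60 and CG11267 without mCherry RNAi replicate 1 were 0.38 and 0.27. The ratio of Hsp60 to CG11267 was 1.011 and 0.967 in the mCherry RNAi libraries versus 1.03 and 1.06 in the Piwi RNAi libraries. The paralogs Hsp60B, Hsp60C and Hsp60D were listed at 0 in every library.

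Other mitochondrial folding genes were also higher in both Piwi RNAi libraries, 5 of the 5 tested with CG11267 among them, against 51.5% of all tested genes. None passed limma's test (2 had an unadjusted p under 0.05, against 26.6% of all tested genes). Roe1, the exchange factor of the mitochondrial Hsp70, had 8.86 and 18.9 FPKM against 26.4 and 29.7 FPKM (1.048; limma adjusted p = 0.181; 0.54 without mCherry RNAi replicate 1). The protease gene Lon had 12.4 and 17.0 FPKM against 31.4 and 28.5 FPKM (1.00; limma adjusted p = 0.139).

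**Figure D5:**
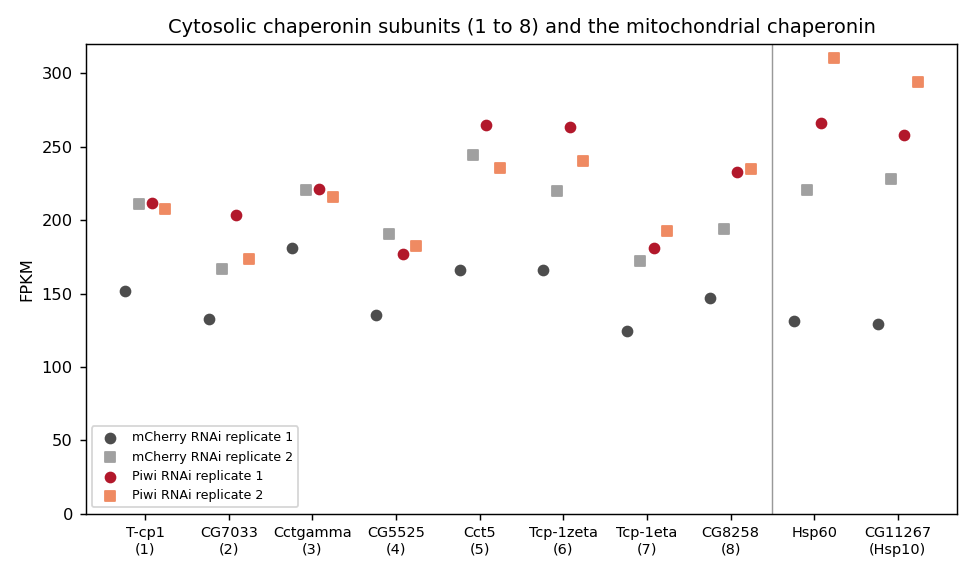
FPKM, from 0, of the 8 subunits of the cytosolic chaperonin (numbered 1 to 8) and of Hsp60 and its cap CG11267, with 1 point per library. mCherry RNAi replicate 1 is the lowest library for all 10 genes, and Hsp60 and CG11267 have nearly the same level in each library.

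The genes with matching names and other roles did not share a direction. Cct1 had 79.2 and 100.6 FPKM in the mCherry RNAi libraries versus 135.5 and 129.4 in the Piwi RNAi libraries (log2 difference 0.56; limma adjusted p = 0.167). Cct2, which lies next to it on chromosome arm 3L, had 11.7 and 11.2 FPKM against 7.04 and 5.24 FPKM (−0.82; limma adjusted p = 0.164), on about 37.5 and 36.5 fragments against 17.7 and 18.6. Both had groups without overlap, in opposite directions. HSPC300 had 70.8 and 104.5 FPKM against 84.5 FPKM in both Piwi RNAi libraries (−0.03; limma adjusted p = 0.944), with overlapping groups. Without these 3 genes, none of the remaining 34 passed and their median log2 difference was 0.20.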

How the data were processed

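The authors deposited 1 table of FPKM values with a column for each library. Per the file headers its columns follow the Cufflinks tracking format. The submitters' processing notes list TopHat and Cufflinks; their versions, the genome build, annotation, strand setting and scaling were not given. FPKM are not counts, so limma-trend (limma 3.58.1, R 4.3.3) was run on log2(FPKM + 1), two-sided, over the 8313 rows with a mean of at least 1 FPKM, with Benjamini-Hochberg adjustment over all of them and a threshold of 0.05. The residual degrees of freedom were 2 and the prior ones 2.86. The fitting code was tested on simulated data.

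FPKM steps of low, single-transcript genes of at least 800 nt, less 130 nt of length, gave the depth: 87.8% to 90.7% of these values came within 0.1 of whole fragments (20% by chance). Fragment numbers are given only for genes with 1 annotated transcript. Current symbols, gene order, exon numbers and lengths come from Ensembl annotation BDGP6.54, without its coordinates; Hsc70-4 had no entry there. Zeros were taken as listed. All 37 mitochondrial rows are at 0, so whether a listed 0 is a measured absence is not known. No sequences are shown.

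Members, lists and tests were chosen with earlier results of these data known. Named genes were piwi, Hop, Hsf, Trap1, Gp93, Cdc37, HSPC300, Cct1 and Cct2, per class the 6 highest members and the 3 tested ones with the largest difference, and per list the 3 with the largest difference at a mean of at least 5 FPKM. CG14207, l(2)efl, CG4461, stv, shu, CG7033, CG5525, CG16817, CG8531, Crc, Pdi, ERp60 and the members Hsp67Ba, Hsc70-1, Hsc70-2, Hsp60B, Hsp60C, Hsp60D and the 4 Hsp70B copies were named beyond this rule. Alternatives were pseudocounts of 0.1 and 5, no filter or a minimum mean of 5 FPKM, quantile or median of ratios scaling, robust eBayes, eBayes with no trend, the replicate block, each library left out, an adjusted p under 0.1, omission of Cct1, Cct2 and HSPC300, and, added after seeing the data, the small Hsp class without Hsp67Bb.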

Additional observations from a re-analysis of the deposited data

How the results depend on the processing

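The count of changed genes over the whole table, 98, went to 94 and 112 with pseudocounts of 0.1 and 5, to 0 without a filter (2268 at an unadjusted p under 0.05), 167 at a mean of at least 5 FPKM, 35 with quantile normalization, 8 with the median of ratios, 4 without a trend, 209 with robust eBayes, 253 at an adjusted p under 0.1 and 0 with any library left out (619 to 3195 at an unadjusted p under 0.05). Of the heat shock and chaperonin genes, 1 passed limma at a mean of at least 5 FPKM (DnaJ-H), 2 with robust eBayes (DnaJ-H and Hsp27) and 2 at an adjusted p under 0.1. None of them passed with pseudocounts of 0.1 and 5, without a filter, with quantile normalization, with the median of ratios or without a trend. In that order, their smallest limma adjusted p was 0.0634, 0.0637, 0.147, 0.103, 0.121 and 0.167. The replicate numbers are not stated to pair libraries, and the deviations of same-numbered libraries correlated at 0.25 across genes; with the replicate number as a block 194 genes and 3 heat shock genes passed (Hsp70Aa, Hsp70Ab and Hsp27), as did CG32641 and CG32640 among the other named genes. The cause of these changes was not tested.

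The median of the 37 genes was −0.025 with quantile normalization and −0.23 with the median of ratios. Under the same scalings the Hsp90 group was at 0.31 and 0.19 and the DnaJ genes at −0.12 and −0.25, and with the median of ratios the small Hsp genes were at −0.52 and the chaperonins at −0.0767. The small Hsp median was 0.40 at a mean of at least 5 FPKM, which leaves out Hsp67Ba and Hsp67Bb, and 0.12 without Hsp67Bb alone, chosen after seeing the data. With 1 library left out, it ran from −0.20 to 0.26, the chaperonin median from 0.0748 to 0.58 and the DnaJ median from 0.19 to 0.30.

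Some log2 differences above 0 were below 0 with the median of ratios. Among the members and the folding genes named by the rule, they were those of Droj2 (−0.27), DnaJ-60 (−0.23), Hsc70-4 (−0.17), Hsc70-3 (−0.24), Gp93 (−0.13), Cct5 (−0.10), Tcp-1zeta (−0.0109), Cctgamma (−0.28), T-cp1 (−0.18), Tcp-1eta (−0.0568), Hsp22 (−0.0058), CG7770 (−0.29) and CG10635 (−0.0246). Of the folding genes named beyond the rule, they were those of CG7033 (−0.07), CG5525 (−0.24), Crc (−0.09), Pdi (−0.04) and ERp60 (−0.22). With quantile normalization, among the members and the folding genes named by the rule, they were Droj2 (−0.0744), DnaJ-60 (−0.16), Hsc70-3 (−0.025), Cctgamma (−0.0522) and CG7770 (−0.12). With 1 library left out the sign of these genes varied. DnaJ-1 ran from −0.54 to 0.42, Hsf from −0.18 to 0.0945, Hsc70-3 from −0.11 to 0.45, Gp93 from −0.0163 to 0.56, Cctgamma from −0.0147 to 0.27, T-cp1 from −0.0064 to 0.46 and HSPC300 from −0.30 to 0.25. Hsp70Bb ran from −0.56 to 0.22, Hsp70Bbb from −1.19 to 0.15, Hsp70Bc from −1.16 to 0.20 and Hsp70Ba from −0.84 to 0.19. Hsp67Bc ran from −0.63 to 0.30, Hsp67Bb from −1.04 to 0.34, Hsp67Ba from −0.70 to 0.16, CG7770 from −0.22 to 0.45 and CG10635 from −0.21 to 0.96. Depth limits the Hsp67B genes, Cct2 and the untested members.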

Other observations

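Gene structure played no part in the choice of the genes, and the difference between structures was not tested. Of the 37 tested genes, 12 have a single exon in every annotated transcript. These are the 6 Hsp70 copies, Hsp68, Hsp23, Hsp26, Hsp27, Hsp67Ba and Hsp67Bc, all from the Hsp70 and small Hsp families. Their median log2 difference was −0.40, with 1 of 12 higher and 3 of 12 lower in both Piwi RNAi libraries. The 3 lower ones include Hsp70Aa and Hsp70Ab, which count as 1 observation, and 6 of the 12 are Hsp70 copies that may share reads. The 24 genes with at least 1 intron, the small Hsp gene Hsp22 among them, had a median of 0.33, with 13 higher and 1 lower in both. The ranges overlapped, from −1.18 to 1.03 for single-exon genes and from −0.82 to 1.35 for genes with introns. Over all tested genes the median was 0.19 for 904 single-exon genes, with 37.8% higher and 14.05% lower in both Piwi RNAi libraries, and 0.38 for 7082 genes with introns, with 52.95% higher and 12.85% lower.

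Folding genes of the endoplasmic reticulum were a list of 11. By limma none passed, with 4 under an unadjusted p of 0.05, 7 were higher in both Piwi RNAi libraries, and the median log2 difference was 0.31. Over all tested genes the shares were 26.6% and 51.5% and the median 0.37. Cnx99A, the membrane chaperone calnexin, had 32.1 and 31.4 FPKM in the mCherry RNAi libraries versus 62.0 and 61.9 in the Piwi RNAi libraries (log2 difference 0.94; limma adjusted p = 0.106). CaBP1, a disulfide isomerase, had 67.3 and 92.4 FPKM against 138.2 and 112.4 FPKM (0.65; limma adjusted p = 0.175; 0.43 without mCherry RNAi replicate 1), and the stress kinase gene PEK 13.6 and 18.1 FPKM against 25.02 and 25.06 FPKM (0.64; limma adjusted p = 0.182). Of the luminal chaperones, Hsc70-3, Gp93 and ERp60 had groups that overlapped, while Crc (calreticulin) and Pdi were higher in both Piwi RNAi libraries. The log2 differences of Crc and Pdi, 0.31 and 0.37, were −0.09 and −0.04 with median of ratios scaling. ERp60, Crc and Pdi were named after their values were seen.

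Hsc70-5, the mitochondrial Hsp70 gene, and the DnaJ domain gene CG8531 are neighbours in the annotation. CG8531, named after its values were seen, had 32.3 and 41.3 FPKM in the mCherry RNAi libraries versus 58.3 and 64.5 in the Piwi RNAi libraries (log2 difference 0.73; limma adjusted p = 0.153).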
